A study of Mus musculus with 12 samples.

Results

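Thrombospondin 1 (TSP-1) is a secreted matrix glycoprotein that inhibits the growth of blood vessels, binds cells through receptors such as CD36 and CD47, and can activate latent TGF-β. In the colon it is studied as a brake on angiogenesis in inflamed tissue and in tumors. This comparison set the colon RNA of TSP-1-/- mice given AOM/DSS against that of wild-type (WT) mice given AOM/DSS, and it used 6 of the 12 arrays of the series, 3 TSP-1-/- and 3 WT, taken by their labelled genotype and treatment. Azoxymethane (AOM) is a carcinogen that mutates the colonic epithelium. Dextran sodium sulfate (DSS) in the drinking water injures that epithelium, and both agents together give inflamed colons that carry tumors. The TSP-1-/- mice, and the WT mice likewise, were on the C57/BL/6 strain, were male and 7 weeks old at the start, received AOM by injection (10 mg/kg) and DSS at 1.5% for 7 days in each of 4 cycles. Colons were taken 15 weeks after AOM. The sources differ on whether AOM was given at the first day of DSS or a week earlier, and this held for both genotypes. The other 6 arrays, from mice of both genotypes on plain water, entered only the estimate of the spread and the contrast of the genotypes without AOM/DSS. Each array held colon RNA of 1 mouse. The study's methods speak of normal and diseased colonic tissue, and a figure legend calls the AOM/DSS samples tumors. Tumor, mucosa, muscle, fat and immune cells could be mixed, and the share of tumor in each is not given in the sources used here.

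Values are log2 signals from 28853 probe sets (probes hereafter) of a whole-transcript array, each relative to a baseline of its own. A difference of 1 is therefore 2-fold, a value of 0 is the baseline and not the absence of RNA, and the levels of different genes cannot be compared. The precision is limited by 3 arrays per genotype. Genes are named only from the 21789 probes with 1 gene symbol, which stand for 19938 genes. A probe was called when the difference TSP-1-/- minus WT was at least 2-fold and its adjusted p (limma, Benjamini-Hochberg over all probes) was under 0.05. Thbs1, which encodes TSP-1, read 0.81, 0.85 and 0.93 on the TSP-1-/- arrays, against 0.27, -0.16 and -0.07 on the WT arrays. All TSP-1-/- values lay above all WT values, with a difference of 0.85 (SE 0.28, adjusted p = 0.073), which was not called. The allele is a targeted mutation near the start of the gene that stops the protein while a transcript can still be made, so this probe, which reads the whole transcript, does not check the genotype labels. Of the 8 genes that mark colon epithelium, 7 were measured and all were lower in TSP-1-/- (median difference -0.68). Of these, Car1, a carbonic anhydrase of colonic surface cells, was called. Relative values cannot show whether a marker is expressed.

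Of the 28853 probes, 802 (2.78%) were called, 500 (1.73%) higher and 302 (1.05%) lower in TSP-1-/-. In genes with 1 symbol, 363 of 19938 (1.82%) were called higher and 267 (1.34%) lower. At an unadjusted p under 0.05 there were 9327 probes. Most differences were small: the quartiles of all probes were -0.14 and 0.37, with a median of 0.13, and 5% lay below -0.63 and 5% above 0.83. All 3 TSP-1-/- arrays lay on one side of all 3 WT arrays in 30.8% of probes, above them in 20.2% and below them in 10.7%. The largest rise was 6.38 and the largest fall -3.73. Rises were both more frequent and larger. At 5-fold or more, 120 probes were higher and 33 lower, of which 77 and 20 were called, and at 10-fold or more 43 were higher and 4 lower, of which 28 and 3 were called. The balance of the calls depended on the scaling: 62.3% of calls were rises with the values as deposited, 48.9% when each array was centred on its median, and 42.6% or 38.6% when the 12 arrays or the 6 AOM/DSS arrays were quantile normalized again. In the re-normalized fits the calls numbered 78 higher and 105 lower (12 arrays) and 243 higher and 387 lower (6 arrays). These scalings moved the median over all probes from 0.127 to 0.0519, 0.0179 and 0.0205, so that a class median close to 0.13 is the level of the array as a whole. Quantile normalization was applied here to the relative values and not to the signals. It gives every array the same distribution, so the smaller median follows in part from the method. With the 12 arrays it also joined the water and AOM/DSS values, which lie on separate baselines. A fit to the 6 AOM/DSS arrays alone, without the spread of the water arrays, called 6 probes (0.0208%), 5 higher (0.0173%) and 1 lower (0.00347%), with 6648 probes at an unadjusted p under 0.05. The 5 were Rfx4, a transcription factor, Cxcr2, Atp6v0d2, the keratin Krt36 and Cemip, a hyaluronan-degrading protein, and the 1 was the unnamed gene model Gm14207 (Rfx4 and Cemip are named here with their values known). With all 12 arrays Cemip was not called (difference 1.99, adjusted p = 0.0524).

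**Figure D1:**
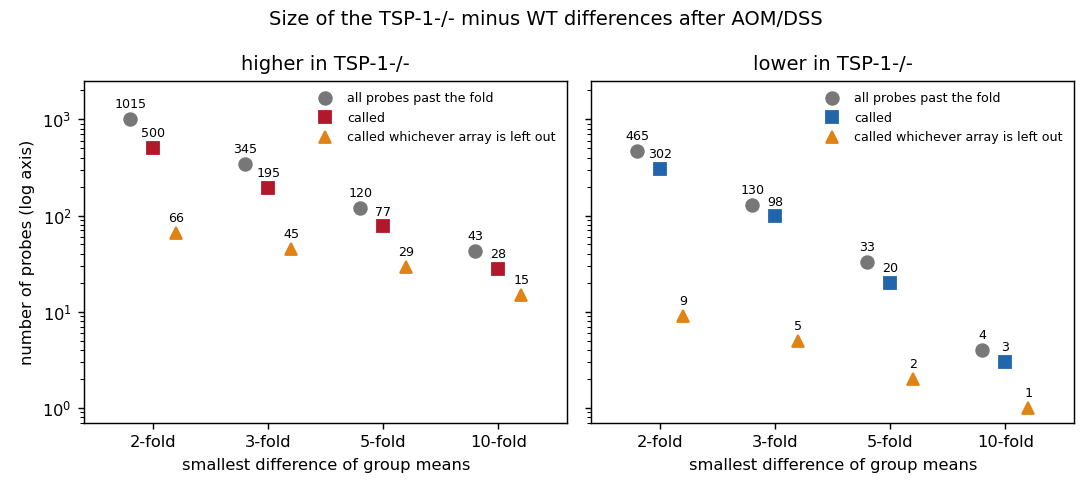
Number of probes (log axis) against the smallest difference of group means, for probes higher (left) and lower (right) in TSP-1-/- than in WT after AOM/DSS. Circles are all probes past the fold, squares those called and triangles those called whichever AOM/DSS array is left out, and at 2-fold these number 1015, 500 and 66 for rises and 465, 302 and 9 for falls.

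The arrays of a genotype did not lie close together. TSP-1-/- replicate 3 had the widest spread over all probes (SD 0.75, against 0.45 and 0.42 on the other TSP-1-/- arrays and 0.38, 0.31 and 0.39 on the WT arrays). WT replicate 1 correlated over all probes with the TSP-1-/- arrays (r = 0.42, 0.48 and 0.20) more than with the other WT arrays (0.02 and 0.09). Probes are not independent replicates, and these values are a description. For each called probe, an array was given a place between the mean of the other arrays of its genotype (0) and the mean of the other genotype (1). On the probes called higher, TSP-1-/- replicate 3 lay at a median of -0.58, beyond its group, and WT replicate 1 at 0.23. On the probes called lower the same arrays lay at -0.81 and 0.47. WT replicate 1 was nearer to the TSP-1-/- mean on 95 of the 500 rises (19%) and on 135 of the 302 falls (44.7%), whereas WT replicates 2 and 3 were so on at most 3 probes in either direction. The number of calls depended on which mice were in the fit. Leaving out TSP-1-/- replicate 3 left 143 probes called higher and 27 lower, WT replicate 2 left 301 and 100, and WT replicate 3 left 82 and 22. Leaving out TSP-1-/- replicate 1 gave 470 higher and 302 lower, TSP-1-/- replicate 2 gave 888 and 514, and WT replicate 1 gave 719 and 622. Leaving out both TSP-1-/- replicate 3 and WT replicate 1, a choice made after the values were seen, gave 549 higher and 451 lower, of which 539 were also called with all arrays.

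**Figure D2:**
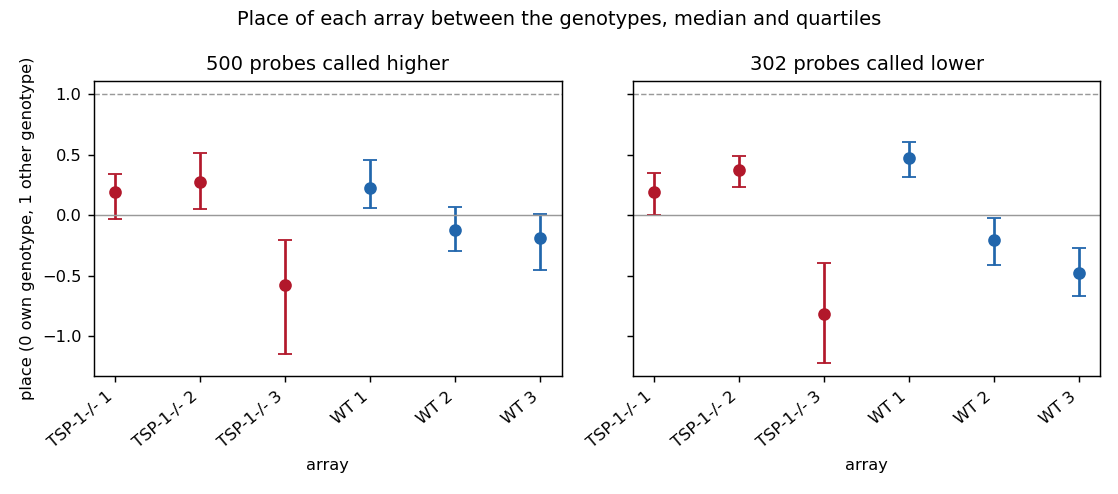
Place of each array between its own genotype (0, the mean of its other arrays) and the other genotype (1), for the 500 probes called higher (left) and the 302 called lower (right) in TSP-1-/-. Points are medians over probes and bars run between quartiles; WT 1 sits above 0 in both panels, at 0.23 and 0.47, and TSP-1-/- 3 below 0, at -0.58 and -0.81.

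The calls that did not rest on 1 mouse were mainly rises. When each AOM/DSS array was left out in turn, 75 probes (0.26%) stayed called in all fits, 66 higher (0.229%) and 9 lower (0.0312%), and 54 of them had 1 symbol, 7 several (4 of these alpha-defensins) and 14 none. Some of the unnamed probes had almost identical values, so a count of probes is not a count of genes. In genes this left 43 higher (0.216%) and 8 lower (0.0401%). The largest of these rises outside the genes tabulated by the study was Defa24, an alpha-defensin of Paneth cells. It read 4.12, 4.98 and 7.27 in TSP-1-/- colons, against 1.89, 0.07 and -0.43 in WT colons (difference 4.95, SE 0.71, adjusted p = 0.00933). Among the largest of the others were Fetub, Alb and Lect2. Fetub, a secreted protease inhibitor made mainly by the liver, read 3.42, 2.15 and 2.03 in TSP-1-/- colons, against -0.05, -0.45 and -0.82 in WT colons. The groups were far apart, with a difference of 2.97 (SE 0.33, adjusted p = 0.00226). Alb (albumin) read 2.93, 2.61 and 3.34 in TSP-1-/- colons, against 1.22, -0.39 and -0.32 in WT colons. WT replicate 1 was the highest WT array and still lay below every TSP-1-/- array (difference 2.79, SE 0.35, adjusted p = 0.00448). Lect2, a chemotactic protein secreted by hepatocytes, read 2.81, 1.95 and 3.08 in TSP-1-/- colons, against 0.33, 0.09 and -0.53 in WT colons (difference 2.65, adjusted p = 0.00226). Fetub and Lect2 are not on the liver list. Of that list, 3 of 28 measured members, Alb among them, were called higher and 1 lower, against 1.82% and 1.34% of all genes. The median difference was 0.31. Of the 4 measured liver markers of the check list, Alb was the only 1 called.

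Prox1, a transcription factor that specifies lymphatic endothelium and is also a Wnt target in intestinal adenomas, read 2.80, 2.68 and 3.44 in TSP-1-/- colons, against 1.35, -0.02 and -0.27 in WT colons. The 3 TSP-1-/- arrays were closely grouped and clear of the WT arrays (difference 2.62, SE 0.40, adjusted p = 0.0108). Robo1, a receptor for the guidance proteins of the Slit family, read 2.31, 1.83 and 2.62 in TSP-1-/- colons, against 0.48, -0.14 and -0.32 in WT colons (difference 2.25, adjusted p = 0.00226). Sbspon, a secreted protein that itself carries a thrombospondin type 1 repeat, read 2.50, 1.50 and 2.58 in TSP-1-/- colons, against 0.21, -0.41 and -0.33 in WT colons. It did not overlap between the groups (difference 2.37, SE 0.25, adjusted p = 0.00226). Gatm, the first enzyme of creatine synthesis, read 0.85, 0.58 and 1.57 in TSP-1-/- colons, against -1.04, -1.64 and -1.27 in WT colons (difference 2.32, adjusted p = 0.00328). Here WT replicate 1 lay close to the other WT arrays. Slc26a9, an epithelial chloride transporter, rose by 2.40, and Tex15, a gene of male germ cells, Erich3 and the unnamed gene model 2700046A07Rik rose by 2.84, 2.73 and 2.55. On Tex15 and Erich3 the WT replicate 1 array was again the highest of its group, at 1.66 and 1.61.

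Only 5 falls with 1 symbol met the same condition once the genes tabulated by the study were set aside. Ces2b, a carboxylesterase of the intestine, read -1.39, -1.45 and -2.08 in TSP-1-/- colons, against -0.57, 0.18 and 0.42 in WT colons (difference -1.65, SE 0.24). Fzd3, a Frizzled receptor for Wnt proteins, read -1.51, -0.95 and -1.33 in TSP-1-/- colons, against -0.16, 0.48 and 0.73 in WT colons (difference -1.61, SE 0.24). Nqo1, a quinone reductase of the oxidative stress response, read -0.89, -0.92 and -1.10 in TSP-1-/- colons, against 0.00, 0.72 and 1.04 in WT colons (difference -1.56, SE 0.23). Each of these had an adjusted p of 0.00987 and no overlap between the groups, with WT replicate 1 the lowest WT array. Btnl2, a butyrophilin-like regulator of T cells, fell by 1.46, and Trpt1, a tRNA phosphotransferase, fell by 1.25.

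**Figure D3:**
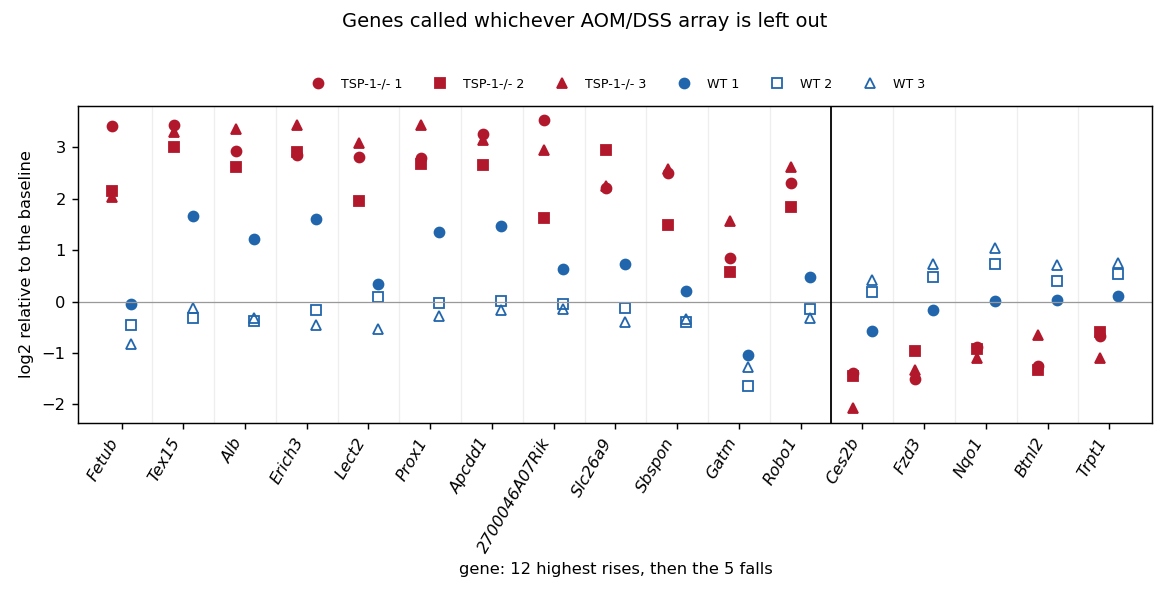
Relative log2 value on each of the 6 arrays for the 12 highest rises (left of the line) and the 5 falls (right) that were called whichever AOM/DSS array is left out. Not shown are the genes tabulated by the study and Defa24, whose rise (4.95) was larger than any shown. Red symbols are the 3 TSP-1-/- arrays and blue symbols the 3 WT arrays; the groups do not overlap for any gene, and WT 1 (filled blue circle) lies on the TSP-1-/- side of WT 2 and WT 3 for every gene, least so for Gatm and Lect2.

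Wnt signaling keeps the crypt base proliferating, and its active state induces both target genes and a set of feedback inhibitors. Of 20 measured feedback inhibitors, 9 were called higher and 0 lower, against 1.82% of all genes called higher (median difference 1.04, against 0.13 over all genes), and 5 of the 9 stayed called whichever array was left out. The list was chosen with earlier results of these data known, and the study had already tabulated Wnt inhibitors as higher. These shares are therefore a description. Apcdd1, a membrane-bound Wnt inhibitor, read 3.25, 2.65 and 3.14 in TSP-1-/- colons, against 1.46, 0.01 and -0.16 in WT colons (difference 2.58, SE 0.34, adjusted p = 0.00672). Notum, an enzyme that inactivates Wnt proteins by removing their lipid, read 3.34, 1.44 and 3.51 in TSP-1-/- colons, against 0.81, -0.19 and -0.38 in WT colons (difference 2.68, SE 0.46, adjusted p = 0.0157). In both genes WT replicate 1 lay between the genotypes. Of 21 Wnt target and stem cell genes, 6 were called higher (median 0.44). Lef1, the nuclear partner of β-catenin, read 2.68, 2.05 and 4.08 in TSP-1-/- colons, against 1.26, -0.59 and -0.33 in WT colons (difference 2.82, adjusted p = 0.0169), and Lgr5, the marker of crypt base stem cells, rose by 1.62. Without TSP-1-/- replicate 3, WT replicate 2 or WT replicate 3, 6, 7 and 5 inhibitors and 3, 4 and 1 targets were called. Quantile normalization of the 12 arrays left 0 inhibitors called, and that of the 6 arrays left 2. The Wnt ligands themselves had 0 of 19 called, with a median of 0.24. No proliferation gene was called: 0 of 26 S phase genes and 0 of 27 mitosis genes were called (medians 0.26 and 0.17). The S phase genes had array medians of 0.24, 0.37 and 0.23 in TSP-1-/- colons, against 0.41, -0.17 and -0.01 in WT colons, so the highest array was WT replicate 1 and the groups overlapped.

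Several genes of differentiated epithelium fell, and in bulk RNA fewer cells of a type and less RNA per cell cannot be told apart. Of 28 brush border and absorptive enterocyte genes, 6 were called lower and 0 higher, against 1.34% of all genes called lower (median -0.58). Tmigd1, an adhesion protein of the brush border, read -3.01, -2.06 and -3.01 in TSP-1-/- colons, against -1.69, 0.17 and 0.50 in WT colons (difference -2.35, SE 0.45, adjusted p = 0.019). Alpi, the intestinal alkaline phosphatase, read -1.63, -0.72 and -1.64 in TSP-1-/- colons, against -0.20, 0.02 and 1.48 in WT colons (difference -1.76, adjusted p = 0.0363). Groups did not overlap for either gene. Of 25 enteroendocrine genes, which mark the hormone cells, 10 were called lower and 0 higher (median -0.81). Sst (somatostatin) read -1.72, -1.40 and -2.24 in TSP-1-/- colons, against -0.77, 0.53 and 0.68 in WT colons (difference -1.93, SE 0.36, adjusted p = 0.0184). Tph1, the enzyme that starts serotonin synthesis, fell by 2.09, and Chga (chromogranin A), a protein of hormone granules, fell by 1.91. For 6 of the 10 called hormone cell genes WT replicate 1 was past the midpoint between the other WT arrays and the TSP-1-/- mean. Without TSP-1-/- replicate 3, WT replicate 2 or WT replicate 3, 0, 1 and 0 brush border genes and 0, 3 and 1 hormone cell genes were called lower. Quantile normalization of the 12 arrays left 0 and 3. Goblet cell genes had 0 of 20 called (median -0.41) and tuft cell genes 1 of 13 (median -0.07).

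Some Paneth cell genes rose. Paneth cells are the antimicrobial cells of the small intestinal crypt and are rare in a healthy mouse colon. Of 20 listed genes 8 were measured by probes with 1 symbol, and 3 were called higher, against 1.82% of all genes. Their medians were 2.08, 3.67 and 4.09 on the TSP-1-/- arrays, against 2.15, -0.57 and -0.38 on the WT arrays, so WT replicate 1 lay at the level of TSP-1-/- replicate 1. Lyz1, the Paneth cell lysozyme, read 3.57, 4.13 and 4.63 in TSP-1-/- colons, against 3.03, -0.29 and 0.12 in WT colons (difference 3.16, SE 0.67, adjusted p = 0.026). Of the 3, only Defa24, given above, stayed called whichever array was left out. The calls numbered 5 without WT replicate 1 and 1 without TSP-1-/- replicate 3, WT replicate 2 or WT replicate 3. Quantile normalization left 0 called with the 12 arrays and 1 with the 6 AOM/DSS arrays.

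Some enzymes that modify and clear foreign compounds and steroids fell. Of 29 conjugating enzymes and carboxylesterases, 11 were called lower and 0 higher, against 1.34% of all genes called lower (median -0.95). Ugt2b5, a glucuronosyltransferase, read -3.87, -3.32 and -3.69 in TSP-1-/- colons, against -2.71, 0.67 and 0.86 in WT colons (difference -3.23, adjusted p = 0.0276). Ces1f, a carboxylesterase, read -1.99, -1.27 and -3.67 in TSP-1-/- colons, against -0.94, 0.52 and 0.51 in WT colons (difference -2.34, SE 0.53, adjusted p = 0.0292). In both genes the low WT array was replicate 1. Of 21 cytochrome P450 and monooxygenase genes, 6 were called lower and 0 higher (median -0.70), and for all 6 WT replicate 1 was nearer to the TSP-1-/- mean. Cyp2c65, an intestinal P450 that oxidizes arachidonic acid, read -2.97, -1.80 and -4.42 in TSP-1-/- colons, against -1.57, 0.37 and 0.33 in WT colons (difference -2.77, SE 0.59, adjusted p = 0.0266). The whole families were measured too. Of all 86 measured cytochrome P450 genes, 6 were called lower and 1 higher, and the median was 0.15. Of the 86, 54 had a difference above 0, against 61.7% of all genes. The 16 carboxylesterase genes had 7 called lower, 8 with a difference above 0 and a median of -0.00. Of 32 steroid and retinoid enzymes, 6 were called lower and 2 higher (median -0.26), and that median turned above 0 without TSP-1-/- replicate 3.

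Of 24 genes that sense or transport bile acids and lipids, 8 were called lower and 2 higher, against 1.34% and 1.82% of all genes (median -0.96). Slc51a and Slc51b form the transporter that exports bile acids from the enterocyte into the blood. Slc51b read -2.27, -1.62 and -3.49 in TSP-1-/- colons, against -0.80, -0.03 and 0.31 in WT colons (difference -2.29, SE 0.39, adjusted p = 0.0157), and Slc51a fell by 3.42. Ppara, a nuclear receptor for fatty acids, read -1.14, -1.43 and -1.98 in TSP-1-/- colons, against -1.16, 0.98 and 1.15 in WT colons (difference -1.84, adjusted p = 0.0453). WT replicate 1 fell inside the TSP-1-/- range there, so the groups overlapped. Without TSP-1-/- replicate 3, the calls of lower conjugating enzymes, P450 genes and bile acid and lipid genes numbered 0, 0 and 3. Without WT replicate 2 they numbered 2, 0 and 3, without WT replicate 3 they numbered 0, 0 and 0, and without both TSP-1-/- replicate 3 and WT replicate 1 they numbered 11, 8 and 7. Quantile normalization of the 12 arrays left 2, 0 and 3.

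Promoters of the called genes were searched for 4 motifs on both strands, from 250 bases before to 50 after the start (RefSeq, GRCm38.p6). Promoters were matched for 259 of the 363 genes called higher, 211 of the 267 called lower and 15614 of all 19938. The full HNF4 motif CAAAGTCCA, bound by a transcription factor of enterocytes and hepatocytes, was in 7 of the 211 promoters of genes called lower (3.32%), 1 of the 259 of genes called higher (0.386%) and 88 of all 15614 (0.564%). TCF/LEF motifs (CTTTGAA or CTTTGAT) were in 11.6%, 9.95% and 8.61% of the promoters of genes called higher, called lower and all, CDX motifs (TTTATGG or TTTACGG) in 4.25%, 4.27% and 4%, and the RFX motif GTTGCC in 11.6%, 14.7% and 14%. A match is a description and not a binding site. The stretches of 29 bases around the HNF4 matches are shown because this motif differed most between the lists. They are written 5′ to 3′ on the strand of the gene with the motif, or its reverse complement, in capitals. The 2 Hsd3b3 stretches belong to 2 start sites listed for that gene and also hold an overlapping TCF/LEF match.
Alpi (chr1:87101607-87101635, minus): tagccagggaCAAAGTCCAtctctgattt
Btnl2 (chr17:34354771-34354799, plus): gaacagagccCAAAGTCCAcctgccttcc
Cyp2c65 (chr19:39060880-39060908, plus): gatgttggaaCAAAGTCCActgggaggag
Slc3a1 (chr17:85028298-85028326, plus): cttggctggaCAAAGTCCAgccatgatta
Trpt1 (chr19:6996074-6996102, plus): gcccggccccCAAAGTCCAcccctttccc
Mcu (chr10:59616787-59616815, minus): gccttttgatTGGACTTTGcaggaagccc
Hsd3b3 (chr3:98762389-98762417, minus): tcactggaagTGGACTTTGaagcttccag
Hsd3b3 (chr3:98763106-98763134, minus): tcactgaaagTGGACTTTGaagcttccag
Slfn2, called higher (chr11:83064943-83064971, plus): tttgagcaaaTGGACTTTGctgcttggga

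Among these genes, Slc3a1, a subunit of a cystine and basic amino acid transporter, read -2.06, -0.85 and -2.53 in TSP-1-/- colons, against -0.16, 0.65 and 0.60 in WT colons (difference -2.18, SE 0.38, adjusted p = 0.0162). Mcu, the pore of the mitochondrial calcium uniporter, fell by 1.14, and Hsd3b3, a steroid dehydrogenase, fell by 1.94. Slc3a1 and Mcu were named for their promoters after their values were seen.

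Mitochondrial genes had small negative differences. Of 38 respiratory chain genes 37 were lower in TSP-1-/-, against 7632 of all 19938 genes. In 36 all 3 TSP-1-/- arrays lay below all 3 WT arrays, against 12.2% of all genes that did not overlap in that direction. None was called (0 of 38), 11 passed the adjusted p without a fold minimum, against 3.65% of all genes in that direction and 9.18% in either, and the median difference was -0.49. The array medians were -0.30, -0.27 and -0.71 in TSP-1-/- colons, against -0.07, 0.01 and 0.20 in WT colons. Sdhb, an iron-sulfur subunit of succinate dehydrogenase, read -0.56, -0.50 and -1.19 in TSP-1-/- colons, against -0.17, -0.09 and 0.43 in WT colons (difference -0.81, SE 0.22, adjusted p = 0.0433). Of 77 mitochondrial ribosomal protein genes 76 were lower (median -0.37), and of 24 citrate cycle genes 23 were lower (median -0.44), against the same 7632 of 19938. Cytosolic ribosomal protein genes had a median of 0.01 over 57 genes, 33 above 0, which turned below 0 when arrays were centred or quantile normalized again. Fatty acid oxidation and ketogenesis genes had 6 of 27 called lower, against 1.34% of all genes, with 26 below 0 and a median of -0.82. Ehhadh, a peroxisomal enzyme of fatty acid oxidation, read -0.92, -0.64 and -1.25 in TSP-1-/- colons, against 0.01, 0.72 and 0.02 in WT colons (difference -1.18, SE 0.21, adjusted p = 0.018). Bdh1, which makes the ketone body hydroxybutyrate, fell by 1.19. Of these 27, the number called was 0 without TSP-1-/- replicate 3, 1 without WT replicate 2, 1 without WT replicate 3 and 11 without WT replicate 1.

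Several genes of myeloid immune cells rose. Of 21 neutrophil genes 5 were called higher and 0 lower, against 1.82% of all genes called higher (median 1.27), and 14 did not overlap between the groups, against 20.4% of all genes in that direction. Csf3r, the receptor of the neutrophil growth factor G-CSF, read 1.83, 2.15 and 2.98 in TSP-1-/- colons, against 0.29, -0.55 and -0.46 in WT colons (difference 2.56, SE 0.46, adjusted p = 0.017). Cxcr2, the chemokine receptor that draws neutrophils into tissue, read 3.66, 4.25 and 4.96 in TSP-1-/- colons, against -0.03, -0.98 and 0.15 in WT colons. Here WT replicate 1 lay within the range of the other WT arrays (difference 4.58, SE 0.84, adjusted p = 0.0184). Lcn2, an iron-binding protein of neutrophils and inflamed epithelium, rose by 3.25 (adjusted p = 0.0463). The neutrophil marker S100a9 differed by 4.41 with an adjusted p of 0.0585. Of 25 macrophage genes 5 were called higher (median 0.93), and their array medians were 0.50, 0.39 and 1.02 in TSP-1-/- colons, against -0.22, -0.36 and -0.09 in WT colons. Arg1, arginase of alternatively activated macrophages, read 1.02, 1.16 and 2.10 in TSP-1-/- colons, against -1.06, -0.02 and -0.44 in WT colons (difference 1.93, SE 0.34, adjusted p = 0.0169). Atp6v0d2, a proton pump subunit of macrophages and osteoclasts, rose by 2.93 and stayed called in all left-out fits. The calls numbered 0 neutrophil and 2 macrophage genes without TSP-1-/- replicate 3, 4 and 2 without WT replicate 2, and 0 and 1 without WT replicate 3. Quantile normalization of the 12 arrays left 0 neutrophil and 1 macrophage gene called. The untreated TSP-1-/- colons also read above the untreated WT colons at Csf3r, Cxcr2, Lcn2 and S100a9, with differences on water of 1.18, 1.00, 1.51 and 1.59 that were not called.

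Lymphocyte genes varied widely among the TSP-1-/- mice. Of 24 B cell and plasma cell genes 5 were called higher (median 1.31), against 1.82% of all genes called higher. Their array medians were 1.15, 0.09 and 2.60 in TSP-1-/- colons, against 0.25, -0.12 and 0.04 in WT colons, so TSP-1-/- replicate 2 was at the WT level. Cd79a, a chain of the B cell receptor, read 2.73, 0.43 and 3.92 in TSP-1-/- colons, against 0.47, -0.98 and -0.47 in WT colons. The groups overlapped (difference 2.69, SE 0.73, adjusted p = 0.045), and 0 of the 24 were called when TSP-1-/- replicate 1, TSP-1-/- replicate 3, WT replicate 2 or WT replicate 3 was left out, against 16 without TSP-1-/- replicate 2. T and NK cell genes had medians of 0.23, 0.14 and 2.11 in TSP-1-/- colons, against -0.21, 0.11 and 0.20 in WT colons. Of 29, 1 was called higher, the NK cell receptor Klrk1 (difference 1.66), against 1.82% of all genes. The T and NK cell calls numbered 0 without TSP-1-/- replicate 3, WT replicate 2 or WT replicate 3, and 5 without TSP-1-/- replicate 2. Schlafen and guanylate-binding protein genes, which are induced by interferons, had 5 of 17 called higher (median 0.83). Gbp9 read 1.12, 1.41 and 2.34 in TSP-1-/- colons, against 0.07, -0.30 and -0.07 in WT colons (difference 1.72, SE 0.26, adjusted p = 0.00987), and Slfn2 rose by 1.84. Of the 17 genes, 1 was called in each case without TSP-1-/- replicate 3, WT replicate 2 or WT replicate 3.

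Among secreted signals, 3 of 31 chemokines, 3 of 39 interleukin and TNF family ligands, and 3 of 29 EGF and IGF family genes were called higher (median differences 0.62, 0.44 and 0.31), against 1.82% of all genes, with 0, 0 and 1 called lower. Cxcl5, an epithelial chemokine that binds Cxcr2, read 3.86, 3.73 and 4.57 in TSP-1-/- colons, against 1.94, -0.15 and -0.84 in WT colons. The groups did not overlap, with WT replicate 1 the highest WT array (difference 3.74, SE 1.01, adjusted p = 0.0447). Il1b, an inflammatory cytokine of myeloid cells, rose by 3.31, and its difference on water was 1.57, which was not called. Il23a, a subunit of the cytokine IL-23, read 1.07, 1.26 and 1.22 in TSP-1-/- colons, against 0.09, 0.18 and 0.20 in WT colons. Both groups were tight, and the difference was close to the 2-fold minimum (difference 1.02, SE 0.14, adjusted p = 0.00672). Igf1, a growth factor made by stromal cells and macrophages, read 0.60, 0.89 and 1.61 in TSP-1-/- colons, against -0.59, -0.13 and -0.30 in WT colons (difference 1.38, adjusted p = 0.0284). Of 30 BMP and activin genes, 1 was called higher and 2 lower, against 1.82% and 1.34% of all genes. Inhba, the subunit of activin A, read 1.94, 2.81 and 2.85 in TSP-1-/- colons, against 0.73, 0.09 and -0.09 in WT colons (difference 2.29, SE 0.54, adjusted p = 0.0331), and Bmp3, a ligand of the BMP family, fell by 1.49. At most 1 gene of each of these lists was called higher without TSP-1-/- replicate 3, WT replicate 2 or WT replicate 3.

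Some genes of the matrix rose. Of 36 collagen and matrix genes 5 were called higher, against 1.82% of all genes (median 0.56). With no fold minimum 10 passed the adjusted p, against 5.53% of all genes in that direction. In 24 the groups did not overlap, against 20.4% of all genes in that direction. Col1a1, the main chain of type I collagen, read 0.46, 0.51 and 1.29 in TSP-1-/- colons, against -0.29, -0.77 and -0.57 in WT colons (difference 1.30, SE 0.21, adjusted p = 0.014). Of 29 matrix metalloproteinase and inhibitor genes 4 were called higher (median 0.80). Plat, the tissue plasminogen activator, read 1.98, 2.41 and 2.24 in TSP-1-/- colons, against 0.60, -0.15 and -0.01 in WT colons (difference 2.06, SE 0.21, adjusted p = 0.00226), one of the calls that held whichever array was left out. Mmp9, a gelatinase carried by neutrophils, rose by 1.90. Of 26 thrombospondin genes and receptors 2 were called higher and 0 lower (median 0.36). Thbs2, the closest relative of TSP-1, read 1.70, 0.52 and 0.88 in TSP-1-/- colons, against 0.15, -0.36 and -0.99 in WT colons (difference 1.44, SE 0.31, adjusted p = 0.0271). Ltbp1, which stores latent TGF-β in the matrix, read 0.91, 0.99 and 1.06 in TSP-1-/- colons, against 0.11, -0.10 and -0.27 in WT colons (difference 1.07, SE 0.20, adjusted p = 0.0184). Of 32 endothelial and angiogenesis genes 2, Prox1 and the endothelial transcription factor Sox17, were called higher (median 0.43). Of the 32, 28 had a difference above 0, against 61.7% of all genes. Cdh5, the adhesion protein of endothelial junctions, read 0.47, 0.66 and 0.84 in TSP-1-/- colons, against -0.11, -0.33 and 0.23 in WT colons (difference 0.73, adjusted p = 0.174). Vegfa, the main growth factor for vessels, read 0.00, -0.04 and -0.66 in TSP-1-/- colons, against 0.34, 0.33 and 0.38 in WT colons (difference -0.58, adjusted p = 0.0538). Without TSP-1-/- replicate 3, WT replicate 2 or WT replicate 3, the calls numbered 2, 5 and 0 for collagen and matrix, 1, 3 and 1 for metalloproteinases, 0, 2 and 0 for thrombospondins and 1, 1 and 1 for endothelium. Smooth muscle genes had 0 of 23 called and a median of -0.44. Of 34 genes listed as keratins of stratified epithelia and hair, 4 were called higher, against 1.82% of all genes. They were Krt36 (difference 1.97), Krt14 (1.70), Krt23 (1.53) and Krt4 (1.01). The terminal skin marker genes of the check list had 0 of 4 called.

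**Figure D4:**
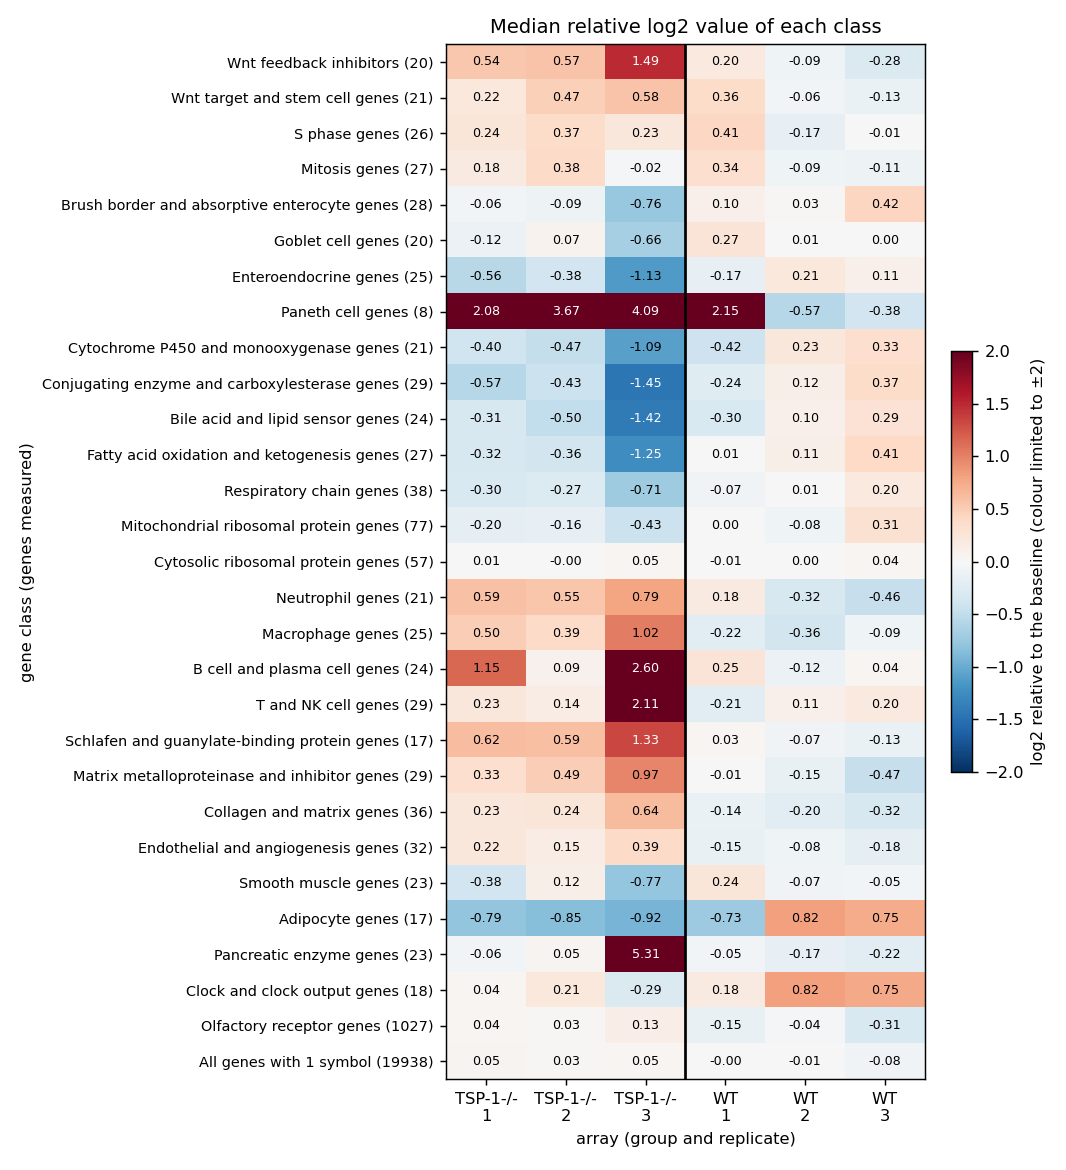
Median relative log2 value over the genes of each class (rows, with the number measured) on each array (columns, TSP-1-/- left of the line and WT right), coloured from -2 to 2. Most metabolic and epithelial classes are lowest on TSP-1-/- 3, adipocyte genes are low on all TSP-1-/- arrays and on WT 1 (-0.79, -0.85, -0.92 and -0.73) and high on WT 2 and WT 3 (0.82 and 0.75), and pancreatic enzyme genes are high on TSP-1-/- 3 alone (5.31).

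Adipocyte genes had 3 of 17 called lower (median -1.24), against 1.34% of all genes called lower. Their array medians were -0.79, -0.85 and -0.92 in TSP-1-/- colons, against -0.73, 0.82 and 0.75 in WT colons. Without WT replicate 1, 12 of 17 were called lower, and without TSP-1-/- replicate 3, WT replicate 2 or WT replicate 3, 0 were. Adipoq (adiponectin) read -4.49, -3.49 and -1.87 in TSP-1-/- colons, against -2.40, 1.46 and 1.40 in WT colons. WT replicate 1 lay inside the TSP-1-/- range, and the difference of -3.44 had an adjusted p of 0.0509. Cidec, a lipid droplet protein of fat cells, fell by 2.23. All 23 measured pancreatic enzyme genes had a difference above 0, against 61.7% of all genes. However, their medians were -0.06, 0.05 and 5.31 in TSP-1-/- colons, against -0.05, -0.17 and -0.22 in WT colons. Cela2a, a pancreatic elastase, read 0.24, 0.48 and 6.36 in TSP-1-/- colons, against -0.11, -0.04 and -0.09 in WT colons (adjusted p = 0.17). Of the 23, 1 was called higher, against 1.82% of all genes. It was the lipase-related gene Pnliprp1 (difference 4.45), which was high on every TSP-1-/- array and on WT replicate 1. Genes of the circadian clock and its output, a list added after the values were seen, had 3 of 18 called lower, against 1.34% of all genes. Their medians were 0.04, 0.21 and -0.29 in TSP-1-/- colons, against 0.18, 0.82 and 0.75 in WT colons. Dbp, a transcription factor whose RNA cycles over the day, read -0.87, 0.14 and -1.41 in TSP-1-/- colons, against 0.14, 1.51 and 1.76 in WT colons (difference -1.85, SE 0.52, adjusted p = 0.0496). Of the 18, 0, 1 and 0 were called without TSP-1-/- replicate 3, WT replicate 2 and WT replicate 3. Whether fat, pancreas or the hour of killing had a part in any other result was not tested.

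Hox genes encode the transcription factors that specify position along the body and the gut, with the higher-numbered members active toward the rectum. Of 37 measured Hox genes 0 were called, and many differed widely among the WT mice. For 34 of the 37, WT replicate 1 lay closer to the mean of the TSP-1-/- arrays than to that of WT replicates 2 and 3, and for 20 it was at least 2-fold from that mean, 9 higher and 11 lower, in all 20 toward TSP-1-/-. Without WT replicate 1, 6 Hox genes were called higher and 10 lower. Hoxb13, the most posterior gene of its cluster, read 0.78, -0.06 and 0.06 in TSP-1-/- colons, against 0.43, -6.33 and -5.89 in WT colons. WT replicate 1 lay among the TSP-1-/- arrays and the other WT arrays were far lower (difference 4.19, adjusted p = 0.182). Hoxa13 read 0.28, 0.31 and -0.23 in TSP-1-/- colons, against 0.48, -2.86 and -3.09 in WT colons (adjusted p = 0.323). Hoxb6, a more anterior member, showed the opposite order and read -2.60, -3.25 and -3.43 in TSP-1-/- colons, against -3.44, 1.28 and 0.98 in WT colons (difference -2.70, adjusted p = 0.0854). The direction did not follow the gene number alone. Hoxa6 differed by 1.17, whereas the higher-numbered Hoxd10 and Hoxd11 differed by -1.83 and -1.54. Osr2, a regional transcription factor, also split between WT replicate 1 and the other WT arrays. It read -4.16, -4.53 and -4.50 in TSP-1-/- colons, against -4.13, 0.94 and 1.19 in WT colons. It was called (difference -3.73, SE 1.05, adjusted p = 0.0492), although WT replicate 1 lay at the level of TSP-1-/- replicate 1. Whether the stretch of colon sampled differed between the mice was not tested, and on WT replicates 2 and 3 it and the genotype cannot be told apart. Without WT replicate 1, the TSP-1-/- and WT colons compared also differed at these Hox genes.

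**Figure D5:**
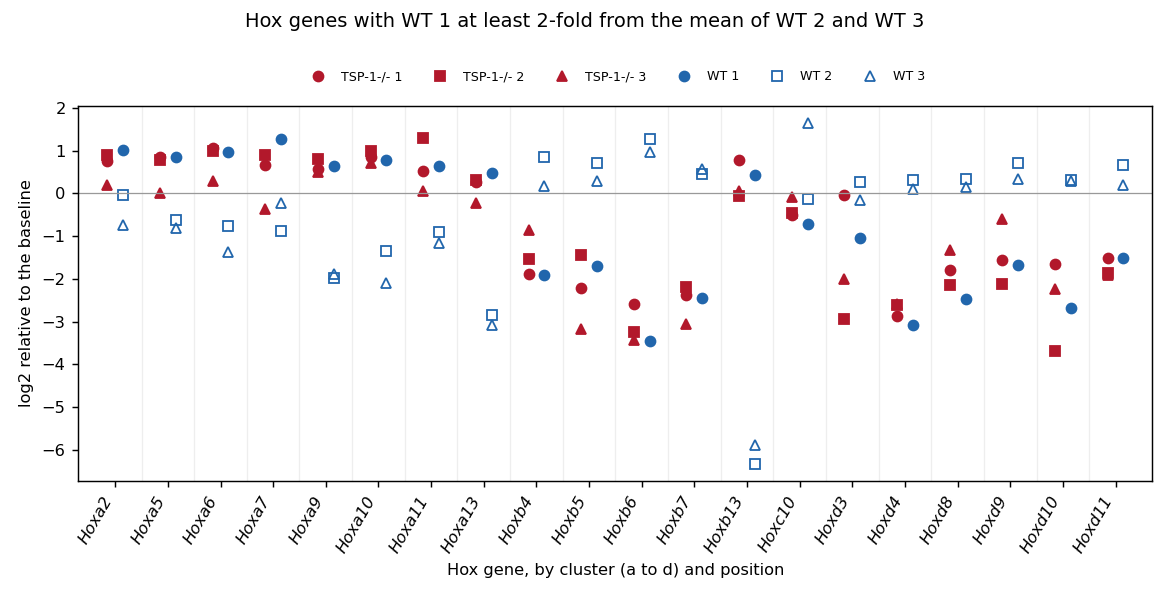
Relative log2 value on each array for the 20 Hox genes in which WT 1 was at least 2-fold from the mean of WT 2 and WT 3, ordered by cluster and position. Red symbols are TSP-1-/- arrays and blue symbols WT arrays; WT 1 (filled blue circle) lies nearer to the mean of the red symbols than to that of WT 2 and WT 3 (open) in each of the 20 genes, and WT 2 and WT 3 reach down to -6.33 and -5.89 for Hoxb13.

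MicroRNAs are short RNAs that repress transcripts through a seed of 7 bases. Of 300 microRNA genes measured, 271 matched the RefSeq table and 3 were called, all higher, which is below the share of all genes called higher (1.82%). A probe of this array reads the gene or its precursor, not the mature RNA. Mir16-1 read 0.16, 0.23 and 0.18 in TSP-1-/- colons, against -0.61, -0.85 and -1.23 in WT colons. The groups were well apart (difference 1.08, adjusted p = 0.0212). Its neighbour Mir15a, in the same cluster on chromosome 14, read 0.74, -0.06 and 0.50 in TSP-1-/- colons, against -0.71, -0.28 and -1.01 in WT colons (difference 1.06). Mir130a read 0.35, 1.10 and 0.76 in TSP-1-/- colons, against -0.69, -0.39 and -0.18 in WT colons (difference 1.16). Only 1 microRNA gene was called without TSP-1-/- replicate 3 or WT replicate 3. The mature sequences are shown with the seed, bases 2 to 8, in capitals because the first pair share it (RefSeq, GRCm38.p6).
miR-15a-5p (chr14:61632075-61632096, minus): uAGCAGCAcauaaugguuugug
miR-16-5p (chr14:61631936-61631957, minus): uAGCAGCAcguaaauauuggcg
miR-130a-3p (chr2:84741116-84741137, minus): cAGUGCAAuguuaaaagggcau

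Relatives with the same seeds at other loci were not called: Mir15b differed by 0.34, Mir16-2 by 0.23, Mir195a by 0.30 and Mir497 by 0.25 for the first seed, and Mir130b by 0.24 and Mir301 by 0.31 for the second.

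Large families of sensory receptor genes also lay slightly above 0. Of 1027 olfactory receptor genes 856 had a difference above 0, against 61.7% of all genes, with a median of 0.26. Of these receptors 3 were called higher, against 1.82% of all genes, whereas 163 vomeronasal receptor genes had 0 called and a median of 0.24. Their array medians were 0.04, 0.03 and 0.13 on the TSP-1-/- arrays, against -0.15, -0.04 and -0.31 on the WT arrays for the olfactory receptors, so the shift was mostly in WT replicates 1 and 3. The median of this family stayed above 0 under each of the 4 other scalings. The 19 measured reference genes had 0 called and a median of -0.01. In the water mice the same genotype contrast called 0 of 28815 probes, with 288 at an unadjusted p under 0.05. The test of the difference between the AOM/DSS and the water contrast called 2 probes (0.00694%), with 4431 at an unadjusted p under 0.05.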

How the data were processed

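Colon RNA of 12 mice (4 groups of 3) was hybridised to Affymetrix mouse gene arrays, 1 array per mouse. The authors summarised the signals with PLIER16, quantile normalized them, and deposited log2 values relative to a baseline per probe. The water arrays lie on another baseline, and their labels carry the protocol of another DSS study, so genotypes were compared only within a treatment. The array software version and probe annotation build are not given in the sources used here. Array intensities and background were not analysed here, so a dim probe could not be told from a bright one. All 12 columns were used, and 0 columns of other samples were present. All 12 arrays were fitted with limma (version 3.58.1, R 4.3.3) as 4 group means with a shared spread (the median pooled SD was 0.241 after AOM/DSS and 0.169 on water, so the shared spread is below that of the AOM/DSS arrays alone), and the AOM/DSS contrast, TSP-1-/- minus WT, was adjusted by Benjamini-Hochberg over 28853 probes. Probes without a value on the water arrays (38) were fitted on the 6 AOM/DSS arrays. A gene with several probes was called only when all were called the same way, and its value is their mean. In simulated data of 28853 probes the fit recovered 92.5% of probes changed by 1.5 and 98.5% of those changed by -3 on the log2 scale. There were 5 false calls among the unchanged probes. The simulated noise was independent and had the same spread on all 12 arrays for a probe. These rates therefore check the code and do not give the error rate of the real calls, where spread differed and single arrays stood apart. Replicates are separate mice.

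The lists (50) and families (44 with measured members) were chosen with earlier results of these data known, and the clock list and the joint removal of WT replicate 1 and TSP-1-/- replicate 3 were added after the values were seen. Named were Thbs1, then the 12 largest rises and up to 12 largest falls that did not overlap and stayed called whichever AOM/DSS array was left out. These were taken without the genes tabulated by the study and without Defa24, which was named as a Paneth cell gene. Then came up to 4 called members of each list with the largest difference, or up to 3 where fewer than 2 were called, then Hox genes and members that define a list. The tried alternatives were other fits (6 arrays alone, array weights, robust variance, replicate block), other scalings, other filters and fold minimums, and each array left out. Tables and figures were made in Python 3.11.15 with pandas 2.3.3 and matplotlib 3.10.9. Promoter and microRNA sequences are from RefSeq on GRCm38.p6.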

Additional observations from a re-analysis of the deposited data

Results flagged for a closer look

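For 2 probes the difference between the genotypes after AOM/DSS differed from that on water in limma's test of the difference itself (Benjamini-Hochberg over 28815 probes). Rfx4 read 5.80, 5.87 and 6.88 on the TSP-1-/- arrays after AOM/DSS, against -0.34, -0.19 and -0.06 on the WT arrays, and its AOM/DSS difference minus its water difference was 6.39 (adjusted p = 8.03e-06). Atp6v0d2 read 2.05, 3.09 and 2.91 on the TSP-1-/- arrays after AOM/DSS, against -0.20, -0.25 and -0.29 on the WT arrays, and the same measure was 2.99 (adjusted p = 0.0115). On water the genotypes differed by -0.01 and -0.06 at these probes. Treated and water arrays lie on separate baselines, so only differences within each treatment entered this test.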

How the results depend on the processing

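The number of calls was the least stable result. Against 802 called probes (500 higher, 302 lower, 75 of them whichever AOM/DSS array was left out), the 6 AOM/DSS arrays alone gave 6 (5 and 1, with 1 stable), quantile normalization of the 12 arrays again gave 183 (78 and 105, with 16 stable), that of the 6 AOM/DSS arrays gave 243 higher, and array weights gave 381 (251 and 130, with 21 stable). Scale normalization left 188 stable. With no fold minimum 2396 probes were called (1551 and 845), and with a 3-fold minimum 293 (195 and 98). Leaving out 1 array at a time, water arrays included, gave 104 to 1402 calls, 82 to 888 higher and 22 to 622 lower, lowest without WT replicate 3. The cause of these changes was not tested. AOM/DSS arrays of the same replicate number were close to uncorrelated in their deviations from the group means (0.0261, -0.0421 and -0.0244). Water arrays of the same number correlated at 0.0931, 0.2810 and 0.4020, and whether those mice were paired was not tested. A replicate block gave 414 higher and 179 lower.

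Apart from Defa24, Hoxa6, Hoxd10, Hoxd11, Krt4 and Krt23, which were not part of this check, no named gene reversed its direction under any alternative. Of the 74 called probes in this check, 5 remained called with only the 6 AOM/DSS arrays and 23 with the 12 arrays quantile normalized again. Without TSP-1-/- replicate 3, 33 remained, and without WT replicate 3, 27. The median of the colonic transport and tuft cell lists changed sign when WT replicate 1 and TSP-1-/- replicate 3 were both left out. Medians that also changed sign under at least 1 alternative were those of the hypoxia, Hox, steroid and retinoid, small intestine, unfolded protein response and reference lists and of the cytosolic ribosomal, Frizzled, solute carrier, aquaporin, carboxylesterase and major urinary protein families. Precision is limited by 3 mice per group, and without intensities the signal over background is unknown.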

Other observations

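Other lists held calls that stand outside the comparisons above. Of 15 mast cell genes, 1 was called higher and 2 lower in TSP-1-/- colons, against 1.82% and 1.34% of all genes. Of the 15, 12 had a difference above 0 (median 0.84), against 61.7% of all genes. The 4 defining mast cell markers had a median difference of 2.34, with array medians of 2.92, 4.19 and 3.83 in TSP-1-/- colons, against 3.65, 0.08 and 0.37 in WT colons, and 0 were called. WT replicate 1 lay within the TSP-1-/- range. Fcer1a, a chain of the IgE receptor, read 2.47, 2.73 and 2.28 in TSP-1-/- colons, against 2.21, -0.71 and 0.24 in WT colons (difference 1.91, adjusted p = 0.0459 by limma). Its value in WT replicate 1 lay just below the TSP-1-/- arrays. Kit, the stem cell factor receptor of mast cells and of the pacemaker cells of the gut wall, fell by 1.26. Without WT replicate 1, 6 mast cell genes were called higher, and without TSP-1-/- replicate 1, TSP-1-/- replicate 3 or WT replicate 3, 0 were.

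Of 21 genes induced by low oxygen, 3 were called lower and 0 higher, against 1.34% and 1.82% of all genes (median difference -0.01, against 0.13 over all genes). Ndrg1, a gene induced by hypoxia and by differentiation, read -0.73, -0.21 and -1.26 in TSP-1-/- colons, against 0.03, 0.65 and 1.19 in WT colons (difference -1.36, adjusted p = 0.0292 by limma). Of 27 interferon-regulated genes, 2 were called higher, against 1.82% of all genes, among them Ifit2, an antiviral protein, with a difference of 1.69. Without TSP-1-/- replicate 3, WT replicate 2 or WT replicate 3, 0 interferon-regulated genes and 0, 0 and 1 low-oxygen genes were called.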
